A study of Homo sapiens with 24 samples.

Results

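The transcripts of the 8 genes that encode the subunits of translation initiation factors eIF2 and eIF2B were followed in HepG2 cells. The genes were chosen by name, as EIF2S1, EIF2S2 and EIF2S3 for eIF2 and EIF2B1 to EIF2B5 for eIF2B, out of 18915 genes with a count. All 8 were among the 12685 genes that passed the filter on low counts and were tested. HepG2 is an established human hepatoma line, so the results describe 1 line of cells. The cells were treated for 10 h with the vehicle DMSO, with 50 nM ISRIB, with 20 µM nelfinavir, with 50 nM bortezomib, with bortezomib and nelfinavir together, or with bortezomib and ISRIB together, the doses in the mixtures being those of the single drugs. Each of the 6 conditions was sequenced in 4 libraries, 24 in all, which the labels call biological replicates without saying whether they were grown on different days. The design sets each drug against DMSO and each mixture against its single drugs.

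eIF2 is a trimer that carries the initiator methionyl-tRNA to the small ribosomal subunit and hydrolyses its GTP when the start codon is found. eIF2B, a decamer made from a pair of copies of each of its 5 subunits, exchanges the GDP left on eIF2 for GTP, and eIF2 phosphorylated on its α subunit by stress-activated kinases turns from a substrate into an inhibitor of eIF2B, which lowers translation of most mRNAs and raises that of a few, ATF4 among them. Bortezomib blocks the proteasome and leads to phosphorylation of eIF2α, nelfinavir slows the removal of that phosphate, and ISRIB binds eIF2B across its β and δ subunits and makes cells insensitive to phosphorylated eIF2α. The 3 drugs therefore meet at the complexes these genes encode, but only mRNA was measured here, not protein, phosphorylation or exchange activity.

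The libraries were made by priming from the poly(A) tail, so a transcript gives reads near its 3′ end whatever its length, and levels are in CPM (counts relative to the library total, set to 1000000 and corrected with TMM factors) and not divided by length. The totals ran from 5154533 to 6943164 counts per library, and the mitochondrially encoded share of the counts rose from 21.5% ± 1.32 in DMSO to 33.8% ± 1.195 with bortezomib and 36.1% ± 3.13 with bortezomib and ISRIB (SD, n = 4 each). With library totals alone in place of TMM factors, the log2 fold changes of all genes shifted by a median of −0.50 between bortezomib and DMSO. The shift was −0.51 between bortezomib with nelfinavir and nelfinavir, and −0.54 between bortezomib with ISRIB and ISRIB. By the totals of nuclear-encoded genes alone these shifts were −0.25, −0.38 and −0.25, with −0.17 between bortezomib with nelfinavir and bortezomib. The fold changes below are relative to the typical gene, and where one of these scalings turned the sign of a change that was called under either setting this is said beside it. In bulk RNA, fewer cells of a kind and less RNA per cell cannot be told apart. All 9 hepatocyte markers looked for were expressed, with ALB (albumin) at 3323 ± 167 CPM and AFP (α-fetoprotein) at 3014 ± 290 CPM in DMSO (SD, n = 4). With bortezomib 5 of the 9 were called lower and 0 higher, beside 25.8% and 27.6% of all genes tested. Of 6 markers of other cell types, PTPRC and PECAM1 had no row, KDR had at most 1 count and COL1A1 at most 5 counts in any library, and CD68 stayed between 0.751 and 5.21 CPM. ACTA2, the smooth muscle actin, was the exception, at 32.1 ± 6.04 CPM in DMSO and 89.0 ± 13.7 CPM with bortezomib (SD, n = 4), and its part in the results below was not tested.

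EIF2S2, the gene of the β subunit of eIF2, was the most counted of the 8 in every condition, with 2508 to 9572 counts per library. In DMSO it stood at 521.6 ± 24.6 CPM, against 62.0 ± 5.74 for EIF2S1, the α subunit that the kinases phosphorylate, and 42.3 ± 1.72 for EIF2S3, the γ subunit that binds GTP and tRNA (SD, n = 4 each). Of the eIF2B genes, EIF2B4 (δ) stood at 51.6 ± 1.34 CPM, EIF2B5 (ε, which holds the catalytic part) at 37.8 ± 3.95, EIF2B1 (α) at 29.7 ± 2.78, EIF2B2 (β) at 25.8 ± 1.64 and EIF2B3 (γ, the partner of ε) at 13.9 ± 2.88 (SD, n = 4 each). The libraries of EIF2S3 and EIF2B5 overlapped in that order, and so did those of EIF2B1 and EIF2B2, while the other neighbours did not overlap. EIF2S2 stayed first and EIF2B3 last in each condition, and the genes between them changed places, so that with nelfinavir EIF2B4 stood at 60.4 ± 6.55 CPM and EIF2S1 at 49.9 ± 4.05 (SD, n = 4 each), with overlap. How well a 3′ end is primed and mapped differs from gene to gene, which such an order includes.

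**Figure D1:**
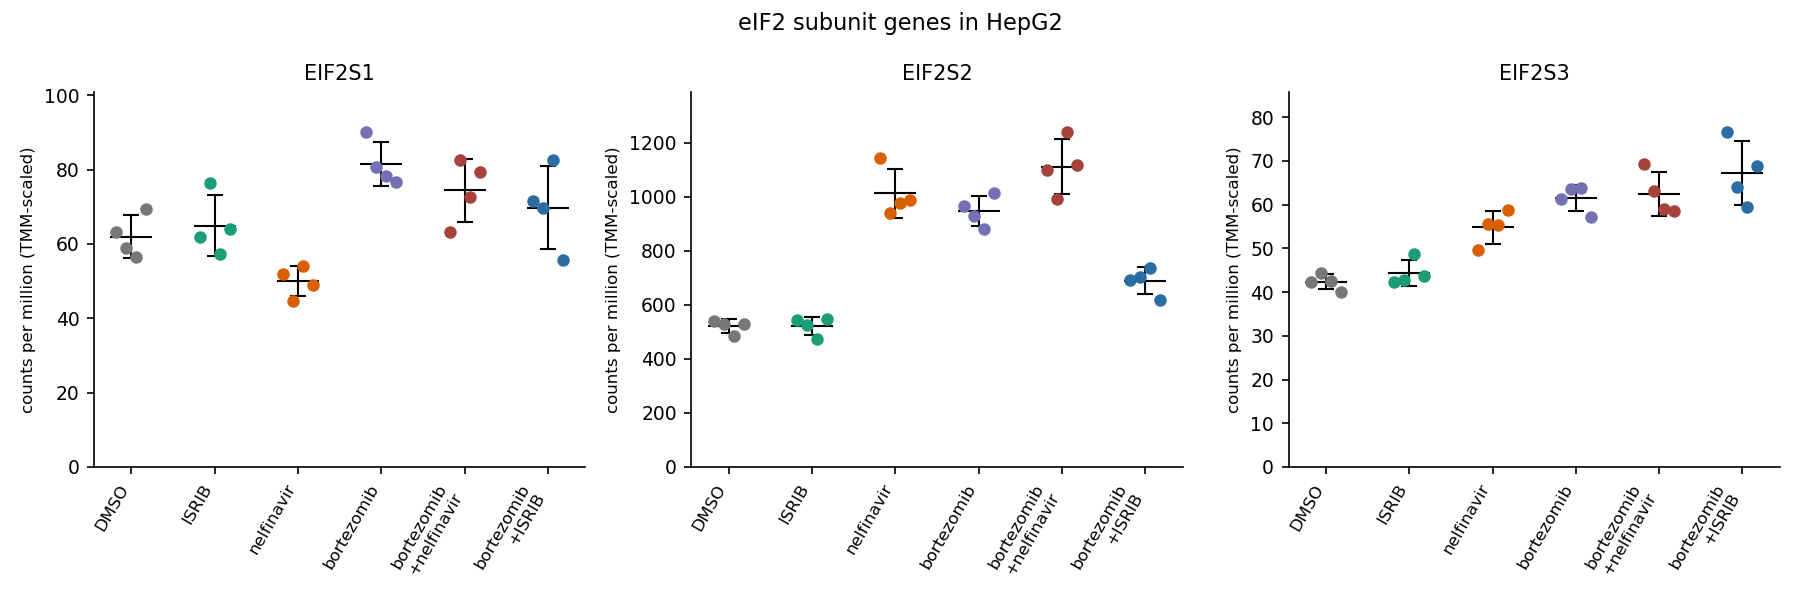
Levels of EIF2S1, EIF2S2 and EIF2S3 in the 24 libraries, in TMM-scaled CPM, by condition. Points are libraries and bars the mean and SD of 4. EIF2S2 lies at 474.1 to 547.4 CPM in all DMSO and ISRIB libraries, and its lowest library in the other conditions is at 619 CPM.

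Bortezomib changed 6 of the 8 genes. EIF2S2, EIF2S3, EIF2B2, EIF2S1 and EIF2B5 passed the test as higher, where 27.6% of all genes tested did, and EIF2B1 as lower, where 25.8% did (edgeR quasi-likelihood test, adjusted p under 0.05). The median log2 fold change of the 8 was 0.37, from −0.75 to 0.86, and the median of all genes was 0.0017. The 3 genes of eIF2 rose together, and those of eIF2B did not move in 1 direction. By library totals alone 1 member was called higher and 3 lower, and by nuclear totals 2 higher and 1 lower; over all genes the split went from 3498 higher and 3275 lower to 1490 higher and 6266 lower by library totals.

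EIF2S2 had the largest of these changes with bortezomib. Its level was 541.6, 529.7, 486 and 529.5 CPM in DMSO replicates 1 to 4 and 965, 928, 881 and 1013 CPM with bortezomib, so that every treated library lay above every control. The fitted fold change was 1.82 (log2 0.86 ± 0.08 SE, edgeR adjusted p = 9.298e-11), and it passed the test in all 17 alternatives run for it, with log2 values from 0.36 to 0.88. EIF2S2 lies on chromosome 20 (GRCh37, 32676115 to 32700049, minus strand), where its 3′ end falls within RALY, a gene of the opposite strand. How strand was treated in the counting is not stated, so reads of both cannot be told apart, and RALY itself did not pass the test with bortezomib (log2 0.17 ± 0.10 SE, adjusted p = 0.1596) or nelfinavir (log2 −0.06 ± 0.10 SE, adjusted p = 0.769).

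The other subunits of eIF2 rose less. EIF2S3 (chromosome X, 24073063 to 24096927, plus strand) stood at 42.4, 44.3, 42.6 and 40.1 CPM in DMSO and at 61.4, 63.6, 63.8 and 57.3 CPM with bortezomib. The groups did not overlap, and the log2 fold change was 0.54 ± 0.10 (SE, edgeR adjusted p = 2.222e-05), which dropped to 0.04 and out of significance by library totals alone. EIF2S1 (chromosome 14, 67827045 to 67853233, plus strand) stood at 63.1, 58.8, 56.4 and 69.5 CPM in DMSO and at 90.0, 80.7, 78.4 and 76.7 CPM with bortezomib. These groups did not overlap either, with a log2 fold change of 0.39 ± 0.11 (SE, edgeR adjusted p = 0.00384) that turned to −0.10 by library totals alone and stayed positive but uncalled, at 0.14, by nuclear totals.

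EIF2B1, the α subunit that joins the eIF2B subcomplexes, was the 1 member that fell with bortezomib. It stood at 25.6, 31.4, 30.9 and 31.0 CPM in DMSO and at 18.2, 18.04, 17.95 and 16.6 CPM with bortezomib, in 77 to 93 counts per library. The groups did not overlap, the log2 fold change was −0.75 ± 0.19 (SE, edgeR adjusted p = 0.001578), and it was called lower in all 17 alternatives, between −1.24 and −0.73. The gene (chromosome 12, 124104953 to 124118313, minus strand) shares 538 bases at its 3′ end with DDX55 on the opposite strand, and DDX55 did not pass the test here (log2 −0.14 ± 0.11 SE, adjusted p = 0.2953).

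The remaining eIF2B genes gave 2 calls with bortezomib that leaned on single libraries and on the processing. EIF2B2 (chromosome 14, 75469624 to 75479069, plus strand) stood at 25.2, 24.99, 24.6 and 28.2 CPM in DMSO and at 27.4, 34.7, 39.7 and 40.0 CPM with bortezomib, with 1 treated library inside the control range. Its log2 fold change was 0.46 ± 0.15 (SE, edgeR adjusted p = 0.008763), without bortezomib replicate 3 it was 0.35 (adjusted p = 0.07405), without replicate 4 it was 0.34 (adjusted p = 0.07835), and by library totals alone −0.04. By nuclear totals it was 0.21 (edgeR adjusted p = 0.2336). EIF2B5 (chromosome 3, 183852826 to 183863915, plus strand) gave 33.8 to 43.2 CPM in DMSO and 43.0 to 52.5 CPM with bortezomib. Its log2 fold change of 0.35 ± 0.14 (SE, edgeR adjusted p = 0.04206) lost its call when any 1 of the 8 libraries was left out, with adjusted p from 0.05392 without DMSO replicate 2 to 0.2034 without bortezomib replicate 4, and turned to −0.15 by library totals alone. With all libraries kept, DESeq2 did not call EIF2B5 either (0.31, adjusted p = 0.07754). Nor did edgeR with upper-quartile factors (0.26, adjusted p = 0.1276), without a filter (0.27, adjusted p = 0.1058) or by nuclear totals (0.09, adjusted p = 0.5952). The call held in 3 of 17 alternatives. EIF2B4 (chromosome 2, 27587219 to 27593205, minus strand) was not called, with a 95% interval of the log2 fold change from −0.19 to 0.30, though by library totals alone it was called lower at −0.45. EIF2B3 (chromosome 1, 45316194 to 45452394, minus strand) was not called either, with an interval from −0.64 to 0.30, in 39 to 135 counts per library, and was called lower at −0.67 by library totals alone.

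**Figure D2:**
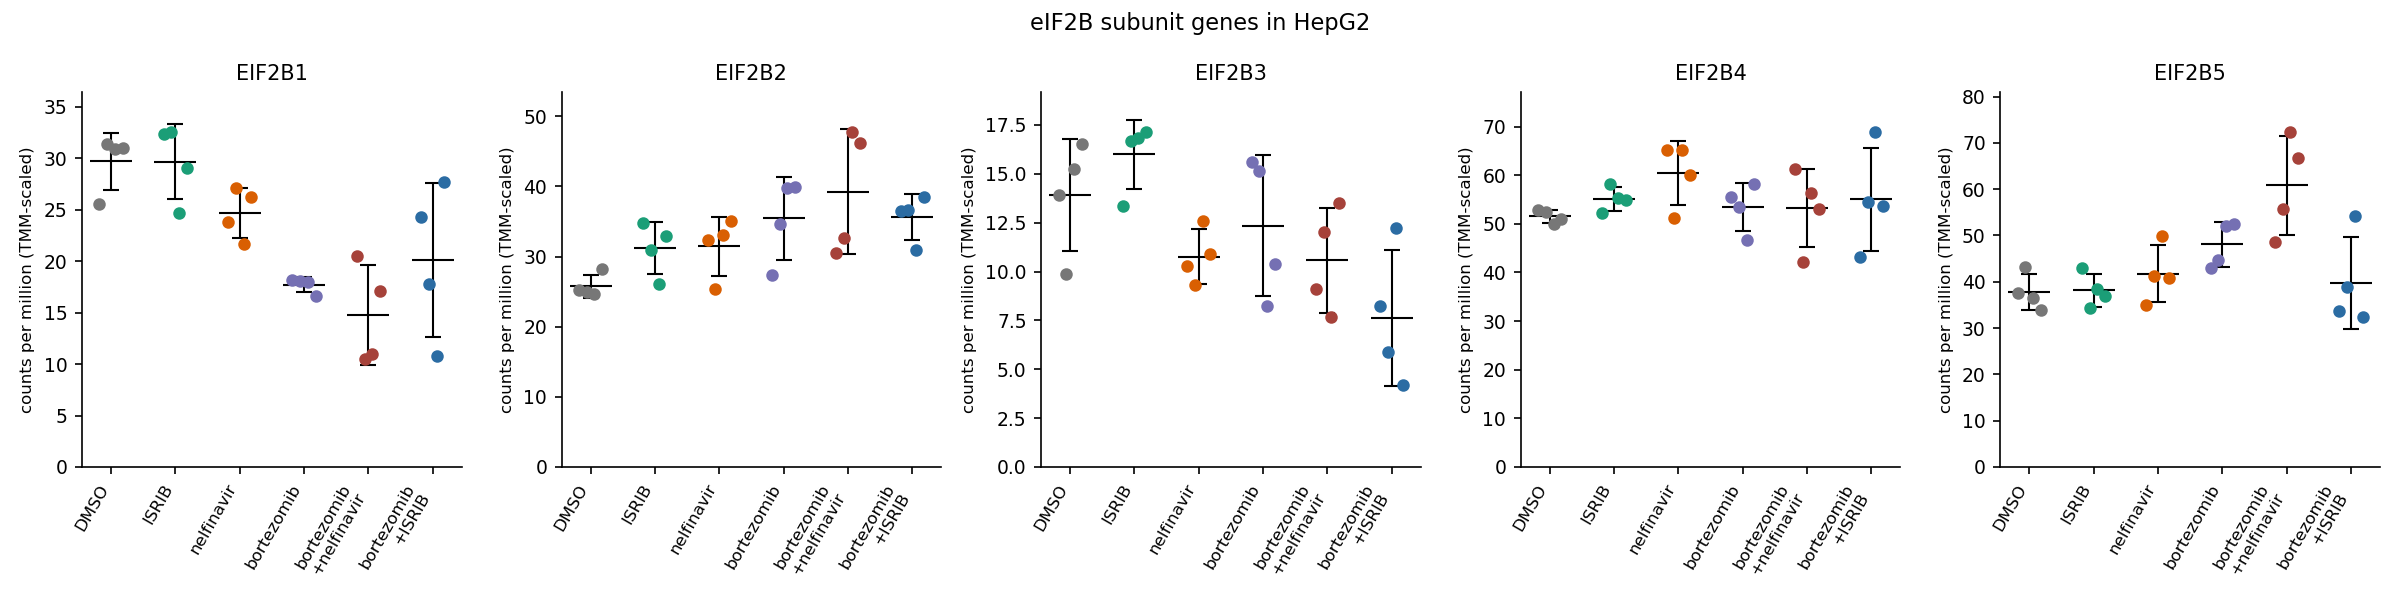
Levels of the 5 eIF2B subunit genes in the 24 libraries, in TMM-scaled CPM, by condition. Points are libraries and bars the mean and SD of 4. EIF2B1 lies at 25.6 to 31.4 CPM in DMSO and at 16.6 to 18.2 CPM with bortezomib, and EIF2B3 is the lowest of the genes in each condition.

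Promoters of 7 of the 8 genes were found in the RefSeq table, with 8 entries of 250 bases before and 50 after a start site (GRCh38.p14). EIF2S2 was the gene without an entry, so its promoter was not searched. The C/EBP-ATF core TGATGNAA, the kind of site ATF4 binds, was found on neither strand of any of the 8 entries. It was in 3.62% of the 35116 promoters of the table. The cAMP response element TGACGTCA (1.85% of promoters) and the pair GAANNTTC of heat shock elements (6.77%) were in none of them as well, and the antioxidant response core TGACNNNGC (13.3%) was in EIF2B1 alone. The ETS core CCGGAAG, held by 10.3% of promoters, was in the entries of EIF2B1 and EIF2B2. These stretches are shown because the 2 genes share the core around their start sites and moved in opposite directions with bortezomib. They run from 50 bases before to 10 bases after the start site, 5′ to 3′ on the strand of the gene, with the core in capitals.
EIF2B1 (chr12:123633677-123633736, minus strand): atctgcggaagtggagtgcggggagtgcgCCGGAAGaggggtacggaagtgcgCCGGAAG
EIF2B2 (chr14:75002871-75002930, plus strand): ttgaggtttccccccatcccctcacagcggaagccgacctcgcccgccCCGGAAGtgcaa
In EIF2B1 the core stands at −21 to −15 and at 4 to 10, and in EIF2B2 at −2 to 5, counted from the start site. The motifs were chosen with the values known, and a match is a match of letters.

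Nelfinavir alone changed fewer genes, 10.4% of all tested higher and 8.84% lower, and of the 8 it moved EIF2S2 and EIF2S3 up and EIF2S1 down. The median log2 fold change of the 8 was 0.18 against 0.0070 for all genes. EIF2S2 stood at 1143, 939.6, 977 and 989 CPM with nelfinavir, above all DMSO libraries. Its fold change of 1.94 (log2 0.96 ± 0.08 SE, edgeR adjusted p = 4.199e-11) ranked 78 by p among the 12685 genes and held in all 17 alternatives, from 0.89 to 0.99. EIF2S3 stood at 49.7, 55.6, 55.3 and 58.8 CPM, again above all DMSO libraries, with a log2 fold change of 0.37 ± 0.10 (SE, edgeR adjusted p = 0.004942) that held in all 17 alternatives.

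EIF2S1 was the member whose direction differed between the single drugs. With nelfinavir it stood at 52.0, 44.7, 54.0 and 49.1 CPM, below the 4 DMSO libraries, which gave a log2 fold change of −0.31 ± 0.11 (SE, edgeR adjusted p = 0.04897). That call sat at the threshold, holding in 7 of 17 alternatives, and was lost without any 1 library other than DMSO replicate 3, with adjusted p from 0.05133 without nelfinavir replicate 3 to 0.1809 without DMSO replicate 4. None of the eIF2B genes was called with nelfinavir in the fit of all 24 libraries, with log2 fold changes from −0.37 for EIF2B3 to 0.29 for EIF2B2 and, for EIF2B1, −0.27 (95% interval −0.64 to 0.11). With a fit of only the nelfinavir and DMSO libraries EIF2B2 was called higher (0.28, edgeR adjusted p = 0.04945).

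ISRIB alone, the compound that binds eIF2B itself, called 0 genes higher and 0 lower, 0% of those tested, by edgeR's test over all genes. At an unadjusted p under 0.05 there were 703 genes, none of the 8 among them. DESeq2 called 1 gene higher and 20 lower, again none of the 8. It gave no adjusted p for EIF2B1, EIF2B2, EIF2B3 and EIF2B5, however, so it could not have called these. The edgeR test called 4 genes higher and 76 lower in a fit of only these groups, and 5 and 34 without a filter, with none of the 8 called in either. EIF2S2 stood at 543.5, 527, 474 and 547 CPM, from below to above the DMSO range of 485.8 to 541.6, and its log2 fold change had a 95% interval from −0.16 to 0.17. The intervals of EIF2S3 (−0.13 to 0.27), EIF2B4 (−0.14 to 0.34) and EIF2S1 (−0.16 to 0.30) were of like width. EIF2B2, which forms the ISRIB site with EIF2B4, was at 26.1 to 34.8 CPM against 24.6 to 28.2 in DMSO, with a log2 fold change of 0.28 ± 0.14 (SE, edgeR adjusted p = 0.9282). The interval of EIF2B3, the least counted, ran from −0.25 to 0.65, so changes of that size are not excluded.

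**Figure D3:**
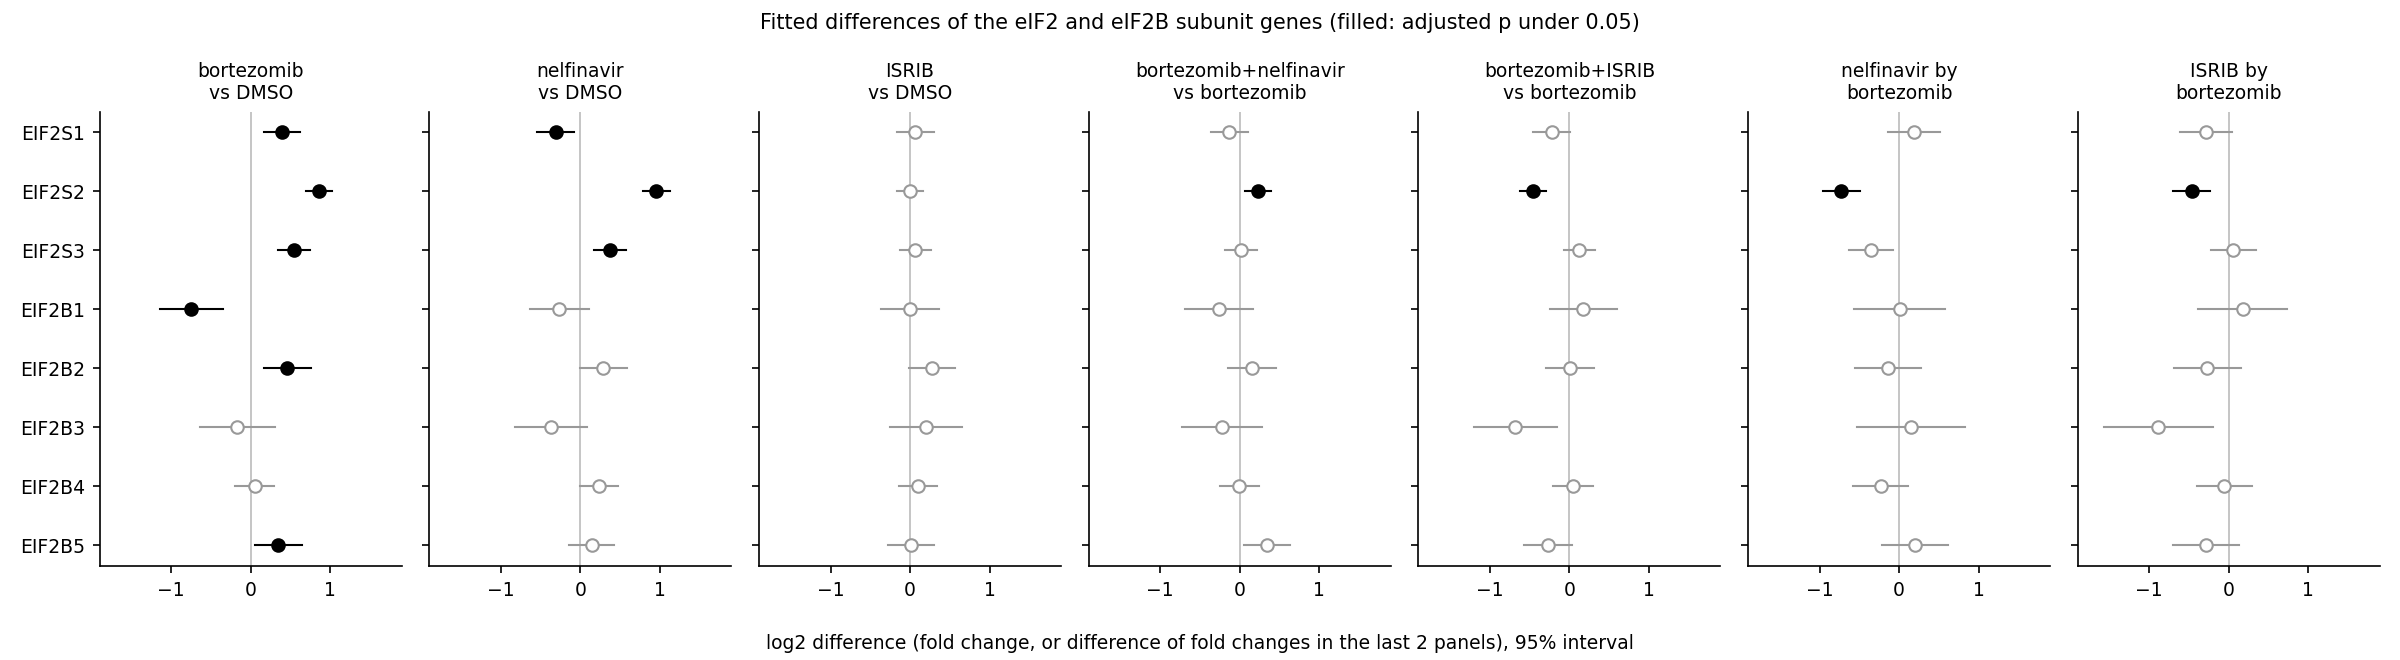
Fitted log2 differences of the 8 genes in 7 comparisons, with 95% intervals. Filled points have an edgeR adjusted p under 0.05, the first 5 panels are fold changes, and the last 2 panels give the change on adding the drug with bortezomib minus the change without it. EIF2S2 is filled in each panel except ISRIB versus DMSO, and is the only filled point in the 2 panels of differences.

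With nelfinavir added to bortezomib, EIF2S2 was the 1 member called with TMM factors, as higher, where 15.6% of all genes were called higher and 13.4% lower. It stood at 1098, 993.5, 1239 and 1116 CPM, with the lowest of these below the highest bortezomib library. The log2 fold change over bortezomib was 0.23 ± 0.08 (SE, edgeR adjusted p = 0.02928). It was not called without bortezomib replicate 3 (0.24, adjusted p = 0.05752) or without replicate 3 of the mixture (0.20, adjusted p = 0.08192), nor by nuclear totals (0.06, adjusted p = 0.58), by which EIF2S1 was called lower instead (−0.30, adjusted p = 0.03789). EIF2B5 came next, at 48.6, 55.6, 72.3 and 66.8 CPM, with a log2 fold change of 0.34 ± 0.14 (SE, edgeR adjusted p = 0.07164). EIF2B5 passed the test without bortezomib replicate 4 (0.43, adjusted p = 0.04562), without replicate 1 of the mixture (0.49, adjusted p = 0.01404) or without its replicate 2 (0.44, adjusted p = 0.03513). Over all genes, replicates 1 and 2 of the mixture differed from 3 and 4 (chi-square per degree of freedom 14.06 to 21.8) more than within these pairs (4.13 and 7.71). EIF2B5, EIF2B2, EIF2S2 and EIF2S3 separated the same pairs, and the other members did not. The reason was not tested.

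Against nelfinavir alone, the mixture raised EIF2S1 and EIF2B5 and lowered EIF2B1, beside 28.7% of all genes higher and 28.4% lower. EIF2S1, at 63.2, 82.4, 72.7 and 79.4 CPM in the mixture, lay above all nelfinavir libraries (log2 0.58 ± 0.11 SE, edgeR adjusted p = 6.817e-05), a change of 0.07 by library totals alone and 0.20 by nuclear totals, neither called. EIF2B5 rose by 0.55 ± 0.14 on the log2 scale (SE, edgeR adjusted p = 0.001362), which was 0.04 and 0.16 by the same totals, neither called. EIF2B1, at 10.5 to 20.5 CPM in the mixture and 21.7 to 27.1 CPM with nelfinavir, did not overlap and fell by 0.74 on the log2 scale (SE 0.20, edgeR adjusted p = 0.00199) in this and all 17 alternatives. DDX55, its neighbour on the opposite strand, was called higher in the same comparison (log2 0.40 ± 0.11 SE, adjusted p = 0.003676). EIF2S2 was not called (log2 0.14 ± 0.08 SE, edgeR adjusted p = 0.1522), was called higher without nelfinavir replicate 1 (0.20, adjusted p = 0.04812), and was called lower by library totals (−0.37) and by nuclear totals (−0.25). RALY, the gene over its 3′ end, was called higher here with TMM factors (log2 0.28 ± 0.10 SE, edgeR adjusted p = 0.01649). None of the other comparisons called RALY. EIF2S3 (log2 0.19 ± 0.10 SE, adjusted p = 0.09907) was called lower by library totals alone (−0.32) and was −0.19, not called, by nuclear totals. EIF2B2 (log2 0.32 ± 0.14 SE, edgeR adjusted p = 0.05619) was called higher without replicate 1 of the mixture (0.43), without its replicate 2 (0.41) or without nelfinavir replicate 4 (0.37), and was −0.18 by library totals and −0.06 by nuclear totals, neither called.

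The level of EIF2S2 with both drugs was lower than the sum of the single effects on the log2 scale. The change on adding nelfinavir was 0.96 without bortezomib and 0.23 with it, and the difference between the 2 changes was −0.72 ± 0.11 (SE, edgeR adjusted p = 1.685e-05). EIF2S2 was the 1 member called in this test, as lower, where 10.0% of all genes were called lower and 9.74% higher, and it was called in all 25 alternatives, from −0.85 to −0.61. EIF2S3 came next at −0.35 ± 0.14 (SE, edgeR adjusted p = 0.0696), and by nuclear totals at −0.48 it passed. Those totals shifted all genes by a median of −0.13 in this test.

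ISRIB added to bortezomib lowered EIF2S2, the 1 member called with TMM factors, where 6.91% of all genes were called higher and 5.34% lower. EIF2S2 stood at 693, 704, 738 and 619 CPM with bortezomib and ISRIB, below all 4 bortezomib libraries and above all DMSO and ISRIB libraries. The log2 fold change over bortezomib was −0.46 ± 0.08 (SE, edgeR adjusted p = 0.0001602), called in all 17 alternatives between −0.52 and −0.41. Since ISRIB alone left EIF2S2 with a log2 fold change of 0.00 ± 0.08 (SE), the difference between both effects of ISRIB was −0.46 ± 0.11 (SE, edgeR adjusted p = 0.01297). EIF2S2 was called in all 25 alternatives of this test. It was the 1 member called, as lower, where 1.89% of all genes were called lower and 2.93% higher. RALY did not pass the test for ISRIB added to bortezomib (log2 −0.19 ± 0.10 SE, adjusted p = 0.2354).

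EIF2B3, the γ subunit gene, was low in the same libraries, at 8.24, 5.86, 12.2 and 4.196 CPM with bortezomib and ISRIB, from 17 to 58 counts. Replicate 3 stood above the other 3 there and within the range of bortezomib alone, 8.24 to 15.6 CPM. The log2 fold change over bortezomib was −0.68 ± 0.26 (SE, edgeR adjusted p = 0.07733). It was called lower by DESeq2 (−0.69, adjusted p = 0.04664) and without a filter (−0.69, edgeR adjusted p = 0.04339), and the value without replicate 3 of the mixture was −1.01 (adjusted p = 0.008913) and without bortezomib replicate 3 −0.84 (adjusted p = 0.03496). Its difference between the effects of ISRIB was −0.88 ± 0.34 (SE, edgeR adjusted p = 0.1327), and −1.21 without that replicate (adjusted p = 0.02388). The same library was the highest of its group for EIF2B5 at 54.1 CPM, beside 33.6, 39.0 and 32.3, and the lowest for EIF2B1 at 10.7 CPM, beside 24.3, 17.8 and 27.7. For EIF2B5 the change of −0.27 ± 0.15 (SE, edgeR adjusted p = 0.2445) became −0.46 (adjusted p = 0.03513) without it.

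Against ISRIB alone, the mixture of bortezomib and ISRIB was called higher for EIF2S3 and EIF2S2 and lower for EIF2B3 and EIF2B1, beside 29.1% of all genes higher and 25.6% lower. EIF2S3, at 76.6, 64.1, 59.4 and 68.9 CPM, had a log2 fold change of 0.60 ± 0.10 (SE, edgeR adjusted p = 4.359e-06), close to 0.06 and not called by library totals alone. EIF2S2 rose by 0.40 ± 0.08 (SE, edgeR adjusted p = 0.0001021), which was −0.14 by library totals and 0.15, not called, by nuclear totals. EIF2B3 was 13.4, 16.7, 16.8 and 17.1 CPM with ISRIB, all above the mixture, and its log2 fold change of −1.05 ± 0.25 (SE, edgeR adjusted p = 0.0004762) held in all 17 alternatives. EIF2B1 overlapped between the groups, with a log2 fold change of −0.57 ± 0.19 (SE, edgeR adjusted p = 0.01283) that held in all 17. By library totals alone EIF2S1, EIF2B2, EIF2B4 and EIF2B5 were called lower as well, at −0.43, −0.35, −0.54 and −0.47. By nuclear totals EIF2S1 (−0.15), EIF2B2 (−0.06) and EIF2B5 (−0.19) were below 0 too, none of them called.

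Between the mixtures, EIF2S2 and EIF2B5 were higher with nelfinavir than with ISRIB, beside 13.2% of all genes higher and 11.3% lower. EIF2S2 did not overlap and differed by 0.69 ± 0.08 on the log2 scale (SE, edgeR adjusted p = 8.282e-08), and EIF2B5 differed by 0.61 ± 0.15 (SE, edgeR adjusted p = 0.002078) with some overlap of libraries. Both held in all 17 alternatives. Without replicate 3 of bortezomib and ISRIB, EIF2B1 was called lower with nelfinavir as well (−0.60, adjusted p = 0.01536) and EIF2B3 higher (0.83, adjusted p = 0.02076). Without replicate 1 of bortezomib and nelfinavir EIF2B1 was called lower at −0.58 (adjusted p = 0.04968), and by nuclear totals EIF2B1 (−0.60) and EIF2S3 (−0.27) were. Nuclear totals shifted all genes by a median of −0.16 between the mixtures. EIF2B4 was called in no comparison with TMM factors. With upper-quartile factors it was called lower, at −0.28, between bortezomib with nelfinavir and nelfinavir, and by library and nuclear totals at −0.69 and −0.56. Its 3′ end overlaps the antisense gene AC074117.10, so reads of both cannot be told apart. AC074117.10 was itself called lower in that comparison with TMM factors (log2 −0.81 ± 0.29 SE, edgeR adjusted p = 0.01855), and in no other.

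The balance of the complexes' transcripts shifted with these changes. Summed CPM of the 3 eIF2 genes over that of the 5 eIF2B genes was 3.94 ± 0.19 in DMSO, 3.71 ± 0.10 with ISRIB, 6.63 ± 0.65 with nelfinavir, 6.53 ± 0.33 with bortezomib, 7.02 ± 0.46 with bortezomib and nelfinavir and 5.24 ± 0.46 with bortezomib and ISRIB (SD, n = 4 each). It is a ratio within a library, so no scaling enters, and it is given as a description, without a test. EIF2S2 made up 83.3% of the eIF2 counts in DMSO and 90.6% with nelfinavir. Without EIF2S2 the ratio was 0.657 ± 0.028 in DMSO, 0.621 ± 0.022 with nelfinavir and 0.859 ± 0.079 with bortezomib, so the shift with nelfinavir rested on EIF2S2 and that with bortezomib did not rest on it alone. With each gene weighted alike, as the mean log2 CPM of eIF2 minus that of eIF2B, the difference from DMSO was 0.33 for nelfinavir and 0.61 for bortezomib, in place of 0.75 and 0.73 for the log2 of the summed ratio, and 0.60 in place of 0.41 for bortezomib and ISRIB. Within eIF2B, EIF2B1 made up 18.7% ± 1.496 of the CPM in DMSO, 10.6% ± 0.87 with bortezomib and 8.30% ± 2.801 with bortezomib and nelfinavir, while EIF2B5 went from 23.8% ± 2.33 to 28.75% ± 2.26 and 34.0% ± 3.83 (SD, n = 4 each).

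**Figure D4:**
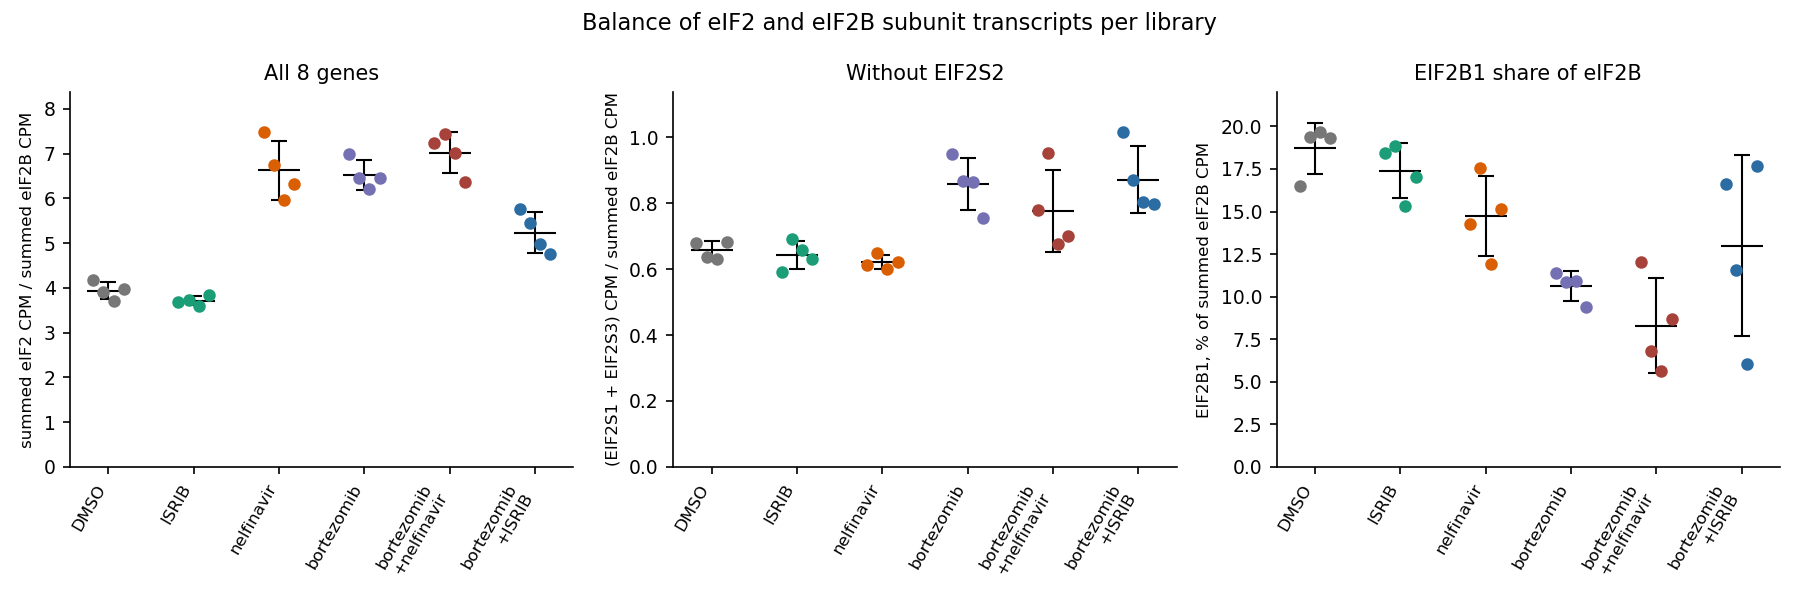
Ratios of subunit transcripts in the 24 libraries by condition: summed eIF2 over summed eIF2B CPM, the same without EIF2S2, and EIF2B1 as a percent of summed eIF2B CPM. Points are libraries and bars the mean and SD of 4. The first ratio is at most 4.17 in DMSO and ISRIB libraries and at least 4.76 in the others, and without EIF2S2 the nelfinavir libraries lie at 0.599 to 0.650, among the controls.

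Over the 24 libraries, the genes whose log2 CPM was most like that of EIF2S2 were STC2 (r = 0.98), which encodes stanniocalcin 2, SHMT2 (r = 0.97), a mitochondrial serine hydroxymethyltransferase, and AARS (r = 0.96), alanyl-tRNA synthetase. EIF2S3 was most like ARHGEF2 (r = 0.94), and EIF2B1 most like CKLF (r = 0.93). The highest r was 0.88 for EIF2S1 with PANK2, 0.87 for EIF2B5 with SREK1, 0.82 for EIF2B2 with RAC1, and 0.77 for EIF2B3 with TRAPPC9. Such r are descriptions over libraries that fall into 6 conditions, each the highest of 12684 other genes.

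Other genes of the same step were read from lists drawn up with earlier results of these data known. Of 15 partners of the eIF2 cycle, 6 were called higher and 3 lower with bortezomib (median log2 0.17), beside the 27.6% and 25.8% of all genes given above, led by EIF1 (1.56 ± 0.07 SE, edgeR adjusted p = 4.122e-19), which guards start codon choice, and EIF5 (1.19 ± 0.08 SE, adjusted p = 5.776e-15), which stimulates the GTPase of eIF2. EIF1 and EIF5 moved as EIF2S2 did when ISRIB was added to bortezomib, by −0.34 ± 0.07 (SE, edgeR adjusted p = 0.0006108) and −0.70 ± 0.08 (SE, adjusted p = 3.503e-08). They were the 2 of 15 called lower there, with 0 higher, beside 5.34% and 6.91% of all genes. With nelfinavir 2 were called higher, EIF1 (1.14 ± 0.07 SE, edgeR adjusted p = 6.531e-15) and EIF5 (0.47 ± 0.08 SE, adjusted p = 1.67e-05), and 5 lower, with a median of −0.000063. Among all genes 10.4% were called higher with nelfinavir and 8.84% lower. Of the 13 subunits of eIF3, an initiation factor that binds the small ribosomal subunit, 9 were called higher and 0 lower with bortezomib (median 0.58, beside 27.6% and 25.8% of all genes). EIF3I came first (0.91 ± 0.08 SE, edgeR adjusted p = 4.534e-12). With nelfinavir 2 of the 13 were called higher and 0 lower, beside 10.4% and 8.84% of all genes. Of 10 genes of the eIF4 group, 4 were called higher and 3 lower with bortezomib (median 0.03), not far from the shares of all genes (27.6% and 25.8%). EIF4EBP1, the inhibitor of the cap-binding protein, rose most (1.56 ± 0.17 SE, edgeR adjusted p = 3.574e-09).

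The enzymes that set eIF2α phosphorylation were read in the same way. Of 10 kinases and regulators, 5 were called higher and 2 lower with bortezomib (median 0.41; 27.6% and 25.8% of all genes), among them EIF2AK1, the kinase HRI (0.70 ± 0.08 SE, edgeR adjusted p = 3.841e-09), and EIF2AK3, the ER kinase PERK (1.08 ± 0.15 SE, adjusted p = 3.248e-07). With ISRIB added to bortezomib, 2 of the 10 were called higher and 0 lower, beside 6.91% and 5.34% of all genes. These were EIF2AK3 (1.02 ± 0.14 SE, edgeR adjusted p = 5.301e-06) and DNAJC3 (1.02 ± 0.09 SE, adjusted p = 1.253e-09), the inhibitor of kinases known as p58IPK. Of 6 phosphatase subunits, PPP1R15A, the stress-induced GADD34 that directs the phosphatase to eIF2α, was the 1 called higher with bortezomib (5.05 ± 0.14 SE, edgeR adjusted p = 1.648e-24), PPP1CA the 1 called lower (−0.45 ± 0.12 SE, adjusted p = 0.001999), and PPP1R15A fell by 1.10 when ISRIB was added (SE 0.11, edgeR adjusted p = 1.054e-08). Among 14 tested genes of a list of ATF4 and its targets, 12 were called higher and 0 lower with bortezomib (median 2.44), 13 and 0 with nelfinavir (median 2.53), and 0 and 6 with ISRIB added to bortezomib (median −0.23). The shares of all genes called higher and lower in these comparisons were 27.6% and 25.8%, 10.4% and 8.84%, and 6.91% and 5.34%. ATF4 mRNA itself stood at 233 ± 10.8 CPM in DMSO, 866 ± 87.7 with nelfinavir, 603 ± 66.0 with bortezomib, 1078 ± 244 with bortezomib and nelfinavir and 547.5 ± 81.4 with bortezomib and ISRIB (SD, n = 4 each).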

How the data were processed

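The authors made QuantSeq 3′ mRNA libraries, trimmed 80 bp single-end reads with cutadapt 2.8, ran the nf-core RNA-Seq pipeline with STAR as aligner and hg19 as genome, and deposited unnormalized read counts per gene of the Ensembl GRCh37 annotation. The strand setting of the counting is not stated. All 24 count columns belong to the series' samples, and 0 columns were left unused. In R 4.3.3, low genes were removed by filterByExpr (count at least 5, total at least 25), and the rest scaled with TMM and tested with edgeR 4.0.16 (quasi-likelihood, 1 coefficient per condition, Benjamini-Hochberg adjustment over all 12685 genes). DESeq2 1.42.0 was an alternative, with other scalings, filters, models and each library left out in turn. The text names all 8 members, from each list at most the 3 called genes with the smallest p, ATF4, the cell type markers, and the genes most correlated with a member (the result for EIF2B4 is not reported here). The genes overlapping a member were named after values were seen. Members and lists were chosen with earlier results of these data known. Replicate numbers were not treated as pairs. The last 500 bases of each member were aligned with BLAST 2.17.0 to GRCh37, with 0 other matches of at least 80 bases and 95% identity. P-values and intervals cover the spread between these libraries and counting error.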

Additional observations from a re-analysis of the deposited data

Results flagged for a closer look

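In 4 of the 48 groups of 4 libraries (8 genes in 6 conditions), 1 library stood far from the other 3 by Dixon's test, of which chance gives about 1 in 20. EIF2B1 stood at 25.6 CPM in DMSO replicate 1, beside 30.9 to 31.4 in the others, and at 16.6 CPM in bortezomib replicate 4, beside 17.95 to 18.2. EIF2B2 stood at 28.2 CPM in DMSO replicate 4, beside 24.6 to 25.2. EIF2B3 stood at 13.4 CPM in ISRIB replicate 1, beside 16.7 to 17.1. EIF2S2 responded differently to the added drugs with and without bortezomib, by −0.72 on the log2 scale for nelfinavir and by −0.46 for ISRIB (edgeR interaction terms, adjusted p = 1.685e-05 and 0.01297), with 4 of 4 libraries of bortezomib and ISRIB below the bortezomib libraries.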

How the results depend on the processing

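For the 8 genes, 669 of the comparisons under another scaling, filter, model or tool kept their side of the threshold, 36 crossed it and 11 turned sign with a call under either setting. Of the 669, 629 kept their sign and 40 turned it with no call under either, 7 of these from a value of at least 0.1. Among the called, the sign turned by library totals alone with bortezomib for EIF2S1 (−0.10), EIF2B2 (−0.040), EIF2B4 (−0.45) and EIF2B5 (−0.15), with bortezomib and nelfinavir against nelfinavir for EIF2S2 (−0.37) and EIF2S3 (−0.32), and with bortezomib and ISRIB against ISRIB for EIF2S1 (−0.43), EIF2S2 (−0.14), EIF2B2 (−0.35) and EIF2B5 (−0.47). By nuclear totals it turned, with a call, for EIF2S2 with bortezomib and nelfinavir against nelfinavir (−0.25). These scalings move the typical gene by the shifts given in the report.

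The number of genes called, out of 8, moved by over 1.5 times as follows. With nelfinavir added to bortezomib it was 1, 0 with upper-quartile factors, library totals or only the groups compared, and 2 without a filter. With ISRIB added to bortezomib it was 1, and 2 without a filter or with DESeq2. By nuclear totals it was 3 for bortezomib, 4 between the mixtures and 2 for the nelfinavir interaction. Smaller moves included 4 for bortezomib by library totals, 6 for bortezomib and ISRIB against ISRIB by library totals, and 4 for nelfinavir with only the groups compared. With each library left out it ranged from 0 to 2 for nelfinavir added to bortezomib, from 1 to 3 for ISRIB added to bortezomib, from 2 to 4 between the mixtures, from 1 to 2 for the ISRIB interaction, from 4 to 5 for bortezomib, from 2 to 3 for nelfinavir and from 3 to 4 for bortezomib and nelfinavir against nelfinavir. Elsewhere the cause of a change was not tested.

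With a block for the replicate number, 6 of the 8 genes were called with bortezomib, 2 with nelfinavir, where EIF2S1 was lost (−0.31, edgeR adjusted p = 0.05361), and 4 with bortezomib and nelfinavir against nelfinavir, where EIF2B2 was gained (0.32, adjusted p = 0.04919). No source says that a number marks a shared culture. After removal of condition means 22 of 60 same-numbered pairs had a correlation over 0.1, against 45 of 180 other pairs. Low counts, 17 to 139 for EIF2B3, limit that gene most.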
